A study of Mus musculus with 9 samples.

Results

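The vascular endothelial growth factor (VEGF) family was examined by RNA-seq in the cortices of newborn mice that differ in *Fezf2*, the gene of a zinc-finger transcription factor of deep-layer projection neurons. The genes are the 5 ligands *Vegfa*, *Vegfb*, *Vegfc*, *Figf* and *Pgf* and the 3 receptors *Kdr*, *Flt1* and *Flt4*, found by their symbols in a table of 24624 genes. *Figf*, now named *Vegfd*, encodes VEGF-D. The family was taken up because *Figf* was more than 4 times higher in *Fezf2-/-* than in *Fezf2+/+* cortices and near the *Fezf2+/+* level in *Fezf2-/-; Fezf2-EnR* cortices. *Figf* was thus selected on its means in these 3 groups, and its values are given as a description, with no test. The other 7 genes were included by family name and tested.

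VEGF-A drives the growth of blood vessels through KDR on endothelial cells, while FLT1 binds it tightly and signals weakly. VEGF-B and placental growth factor, the product of *Pgf*, bind FLT1. VEGF-C and VEGF-D are made as precursors that are cut by proteases and act on FLT4, the receptor of lymphatic vessels, which the sprouting blood vessels of the developing brain also carry. Mouse VEGF-D binds FLT4 and not KDR, and VEGF-D has also been studied in neurons, where it maintains dendrites.

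The libraries came from 3 *Fezf2+/+* mice, 4 *Fezf2-/-* mice and, for *Fezf2-/-; Fezf2-EnR*, 2 mice, with 1 mouse per library and both cortical hemispheres of that mouse in it. All were pups at postnatal day 0 (P0) from crosses of *Fezf2+/-* mice with *Fezf2+/-* mice that carried *Fezf2-EnR*, in 3 litters named m1, m2 and m3. In *Fezf2-/-* and *Fezf2-/-; Fezf2-EnR* mice both copies of *Fezf2* are null alleles that hold a *PLAP* (human placental alkaline phosphatase) reporter under the *Fezf2* promoter. *Fezf2-EnR* is a bacterial artificial chromosome (BAC) transgene, from 1 transgenic line, in which *Fezf2* regulatory sequence drives the FEZF2 DNA-binding domain fused to the repressor domain of engrailed. No group with the transgene on a *Fezf2+/+* background was part of these samples. In RNA from whole cortex, fewer cells of a type and less RNA per cell cannot be told apart.

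The deposited values are read counts per gene divided by a size factor of the library, called normalized counts here. Whole reads were recovered from them, between 18716575 and 25127623 per library. *Fezf2* was at 979 to 1232 normalized counts in *Fezf2+/+*, at 193 to 242 in *Fezf2-/-* and at 907 and 1001 in *Fezf2-/-; Fezf2-EnR*, where the transgene carries part of the *Fezf2* coding sequence. The cortical transcription factor *Neurod6* was at 11317 or more in every library, while 6 choroid plexus markers summed to between 7.66 and 34.1. Thalamic and striatal markers summed to 2540 in replicate bc204 (*Fezf2-/-*) and 1995 in replicate bc208 (*Fezf2-/-; Fezf2-EnR*), both of litter m3, and to 684 to 1457 in the other 7 libraries. *Xist* was at 7895 to 12203 in replicates bc201 (*Fezf2+/+*), bc208 and bc209 (both of the *Fezf2-/-; Fezf2-EnR* libraries), where the Y-linked gene *Ddx3y* was at 0 to 4.22. In the other 6 libraries *Xist* was at 0 to 58.9 and *Ddx3y* at 1169 to 1600. In *Fezf2-/-; Fezf2-EnR* against *Fezf2-/-*, the transgene and the sex of the pups therefore cannot be told apart.

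*Figf* lies on chromosome X (GRCm38, chrX:164373378-164402650, plus strand), and the 106 bases before its annotated GENCODE start (chrX:164373272-164373377, plus strand) are shown because *Figf* was the member that stood apart. The sequence is from RefSeq (GRCm38.p6) and is all in lower case, since none of the motifs searched occurs in it.

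Figf upstream: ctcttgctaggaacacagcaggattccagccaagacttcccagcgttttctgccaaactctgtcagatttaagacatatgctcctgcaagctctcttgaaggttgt

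These bases have a GC content of 47.2%. The RefSeq start of *Figf* lies 144 bases further 3′, and the RefSeq window from 250 bases before to 50 bases after that start has a GC content of 42.0%. It was the lowest of the family, whose other members had windows of 60.7% to 75.3% GC, against a median of 52.7% over 32851 windows. Both strands of each window were searched for 4 motifs. TATAAA was found once in the window of *Figf*, 73 bases before the RefSeq start, and once in that of *Flt1* (13.6% of all windows). The *Figf* match therefore lies 3′ of the GENCODE start and outside the bases shown. No window of the family held the AP-1 motif TGANTCA (7.81% of all windows). The core of the hypoxia response element, ACGTG or GCGTG, was found in the windows of *Vegfa*, *Vegfb*, *Pgf*, *Kdr* and *Flt1* (43.8% of all windows) and not in those of *Figf*, *Vegfc* and *Flt4*. TGACGTCA was found in the window of *Flt1* (1.79% of all windows). These matches are letters in a window and not measured sites. The shares are per window, while *Vegfa* and *Pgf* had 2 windows each and the other members 1.

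*Figf* was at 101, 108 and 101 normalized counts in the *Fezf2+/+* replicates bc201, bc202 and bc203. In the *Fezf2-/-* replicates bc204, bc205, bc206 and bc207 it was at 404, 524, 509 and 502. In the *Fezf2-/-; Fezf2-EnR* replicates bc208 and bc209 it was at 99.6 and 113. The lowest *Fezf2-/-* library lay 3.59 times above the highest of the other 5 libraries, and the *Fezf2-/-; Fezf2-EnR* libraries stood on either side of the *Fezf2+/+* range.

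The *Fezf2+/+* mean was 103 ± 4.34 (SD, n = 3). The *Fezf2-/-* mean was 485 ± 54.7 (SD, n = 4), and that of the *Fezf2-/-; Fezf2-EnR* libraries 106 ± 9.18 (SD, n = 2). The ratio of means was 4.69 for *Fezf2-/-* over *Fezf2+/+* and 1.03 for *Fezf2-/-; Fezf2-EnR* over *Fezf2+/+*. The next highest ratio of *Fezf2-/-* over *Fezf2+/+* in the family was 1.19, for *Vegfc*, so that no other member came near the 4-fold limit, and the lowest was 0.826, for *Pgf*. These values chose the gene and are a description. *Figf* rested on 96 to 604 reads per library.

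The litters can be set side by side for *Figf*. Within litter m1, the *Fezf2+/+* libraries were at 101 and 108 and the *Fezf2-/-* libraries at 509 and 524. Within litter m3, the *Fezf2-/-* libraries were at 404 and 502 and the *Fezf2-/-; Fezf2-EnR* library at 99.6. Within litter m2, the *Fezf2+/+* library was at 101 and the *Fezf2-/-; Fezf2-EnR* library at 113. No litter held all 3 genotypes, so each gives a different pair of them, as a description. The lowest *Fezf2-/-* value, 404, was in replicate bc204, the library with the highest sum of thalamic and striatal markers, and without it the difference on the log2 scale was 2.30 in place of 2.21. Among *Fezf2+/+* libraries, *Figf* was at 101 in bc201, where *Xist* was high, and at 108 and 101 in the others.

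**Figure D1:**
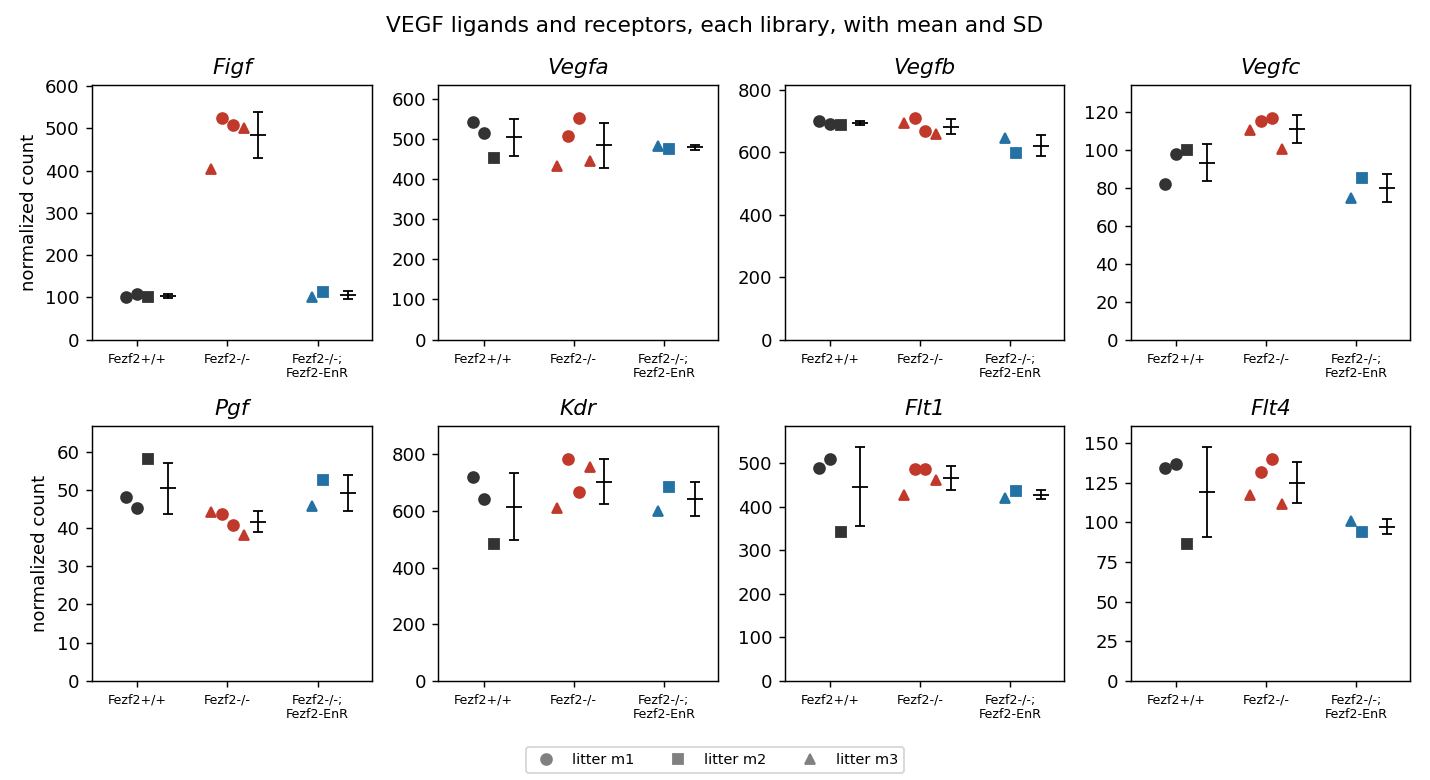
Normalized counts (y axis, from 0) of the 5 VEGF ligands and 3 receptors in each of the 9 libraries, by genotype, with marker shapes for the litters and black bars for the mean and SD of each genotype. The 4 *Fezf2-/-* libraries sit at 404 to 524 for *Figf*, above all others, while the groups lie close together for the other genes, and replicate bc203, the *Fezf2+/+* square, is the lowest point for each receptor.

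Levels were compared between genes only as normalized counts per kilobase of annotated exon. Among the ligands in *Fezf2+/+* cortices, the order per kilobase was *Vegfb* at 432 ± 4.25 (SD, n = 3), *Vegfa* at 118 ± 10.7, *Figf* at 42.9 ± 1.8, *Vegfc* at 38.1 ± 4.04 and *Pgf* at 17.4 ± 2.3. In *Fezf2-/-* cortices *Figf* stood second, at 201 ± 22.7 (SD, n = 4), above *Vegfa* at 113 ± 13.0. The ranges of these neighbours did not overlap, with *Figf* at 168 to 218 and *Vegfa* at 101 to 129. *Figf* in *Fezf2-/-; Fezf2-EnR* cortices lay again between *Vegfa* and *Vegfc*, at 41.3 and 46.7, with *Vegfa* at 111 and 113 and *Vegfc* at 30.5 and 34.8. No neighbours in any of these orders overlapped, although in *Fezf2+/+* the lowest *Figf* value, 41.8, lay close to the highest *Vegfc* value, 40.9.

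*Figf* made up 6.62% ± 0.269 (SD, n = 3) of the summed level per kilobase of the 5 ligands in *Fezf2+/+* cortices. The share was 25.2% ± 2.15 (SD, n = 4) in *Fezf2-/-* cortices, and 6.86% and 8.03% in the *Fezf2-/-; Fezf2-EnR* libraries. Of the FLT4 ligands alone, VEGF-C and VEGF-D, the *Figf* transcript accounted for 50.7% to 55.5% in *Fezf2+/+*, 78.8% to 83.5% in *Fezf2-/-* and 57.3% and 57.6% in *Fezf2-/-; Fezf2-EnR*. These shares follow from the values that chose *Figf* and are a description.

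**Figure D2:**
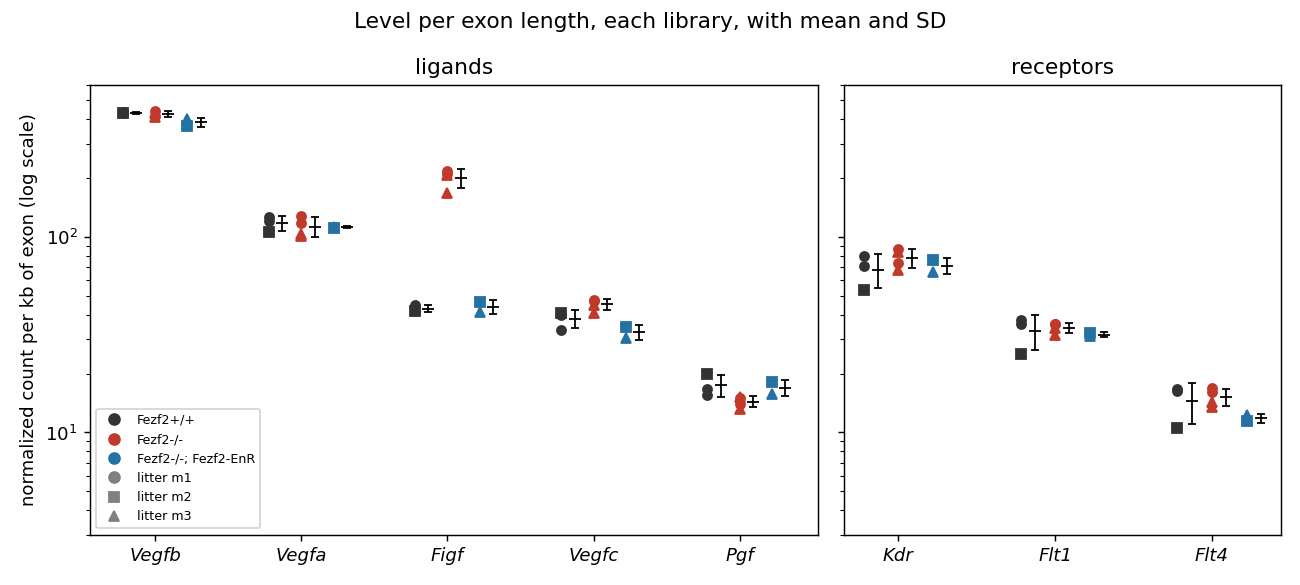
Normalized count per kilobase of exon (y axis, log scale) of ligands and receptors in each library, coloured by genotype, with marker shapes for the litters and black bars for the mean and SD. In *Fezf2-/-* cortices *Figf*, at 168 to 218, lies between *Vegfb* and *Vegfa*, while in the other genotypes it lies just above *Vegfc*.

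*Vegfc*, the nearest relative of *Figf* in the family (chr8:54077606-54187096, plus strand), was at 82.0, 97.8 and 100.1 normalized counts in the *Fezf2+/+* libraries. It was at 110, 116, 117 and 100.5 in the *Fezf2-/-* libraries. In the *Fezf2-/-; Fezf2-EnR* libraries it was at 74.7 and 85.2. Each *Fezf2-/-* library was above every other library, by less than 1 normalized count between the nearest pair, and 1 of the *Fezf2-/-; Fezf2-EnR* libraries lay within the *Fezf2+/+* range.

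*Vegfc* did not pass the test in any comparison. The log2 difference was 0.25 for *Fezf2-/-* minus *Fezf2+/+* (SE 0.13, 95% interval -0.03 to 0.53, limma adjusted p = 0.525), a 1.19-fold ratio of means. For *Fezf2-/-; Fezf2-EnR* minus *Fezf2-/-* it was -0.47 (SE 0.14, interval -0.78 to -0.15, unadjusted p = 0.00778, adjusted p = 0.167), the only member with an unadjusted p under 0.05 there. With litter as a block these differences were 0.35 and -0.53 (adjusted p = 0.415 and 0.202), and without replicate bc201 the first was 0.16.

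*Vegfa*, the main vessel growth signal of the developing brain (chr17:46016993-46032369, minus strand), was at 542, 516 and 453 normalized counts in *Fezf2+/+*. It was at 433, 507, 551 and 444 in *Fezf2-/-* and at 483 and 474 in *Fezf2-/-; Fezf2-EnR*. The groups overlapped throughout, and the log2 difference between *Fezf2-/-* and *Fezf2+/+* was -0.06 (SE 0.10, interval -0.28 to 0.16, limma adjusted p = 0.871). *Fezf2-/-; Fezf2-EnR* minus *Fezf2-/-* gave -0.01 (interval -0.26 to 0.24, adjusted p = 0.979). In *Fezf2-/-* cortices, *Vegfa* was at 507 and 551 in the libraries of litter m1 and at 433 and 444 in those of litter m3.

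*Vegfb*, a ligand of FLT1 (chr19:6982473-6987651, minus strand), was the ligand with the highest level per kilobase and the least spread for its level among *Fezf2+/+* libraries, at 701, 691 and 688 normalized counts. It was at 695, 709, 668 and 657 in *Fezf2-/-* and at 645 and 597 in *Fezf2-/-; Fezf2-EnR*. Both *Fezf2-/-; Fezf2-EnR* libraries were below all others. The log2 difference was -0.02 for *Fezf2-/-* minus *Fezf2+/+* (interval -0.16 to 0.12, limma adjusted p = 0.925). It was -0.14 for *Fezf2-/-; Fezf2-EnR* minus *Fezf2-/-* (interval -0.30 to 0.02, adjusted p = 0.358) and -0.16 for *Fezf2-/-; Fezf2-EnR* minus *Fezf2+/+* (interval -0.33 to 0.01, adjusted p = 0.281).

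*Pgf* (chr12:85166635-85177790, minus strand) had the lowest level of the ligands, at 48.2, 45.2 and 58.0 normalized counts in *Fezf2+/+*, and rested on 39 to 57 reads per library. It was at 44.2, 43.6, 40.7 and 38.2 in *Fezf2-/-* and at 45.8 and 52.5 in *Fezf2-/-; Fezf2-EnR*. Every *Fezf2-/-* library was below every other library, in the opposite order to *Figf* and *Vegfc*, and the nearest pair was 44.2 against 45.2. The log2 difference of *Fezf2-/-* minus *Fezf2+/+* was -0.26 (SE 0.15, interval -0.61 to 0.08, limma adjusted p = 0.593), and -0.16 without replicate bc203.

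*Kdr*, the receptor of VEGF-A (chr5:75932827-75978458, minus strand), was at 719, 643 and 485 normalized counts in *Fezf2+/+*. It was at 610, 782, 666 and 757 in *Fezf2-/-* and at 601 and 686 in *Fezf2-/-; Fezf2-EnR*. The groups overlapped in every comparison. The log2 difference of *Fezf2-/-* minus *Fezf2+/+* was 0.20 (SE 0.14, interval -0.09 to 0.50, limma adjusted p = 0.644), and 0.04 without replicate bc203.

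*Flt1* (chr5:147561604-147726011, minus strand) was at 487, 508 and 341 normalized counts in *Fezf2+/+*, at 427, 486, 486 and 462 in *Fezf2-/-* and at 420 and 435 in *Fezf2-/-; Fezf2-EnR*. The *Fezf2-/-* values lay within the *Fezf2+/+* range. The log2 difference of *Fezf2-/-* minus *Fezf2+/+* was 0.08 (interval -0.20 to 0.36, limma adjusted p = 0.861), and -0.10 without replicate bc203.

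*Flt4*, the receptor of VEGF-C and VEGF-D (chr11:49609263-49652739, plus strand), was at 134, 137 and 86.4 normalized counts in *Fezf2+/+*. It was at 118, 132, 140 and 111 in *Fezf2-/-* and at 101 and 94.0 in *Fezf2-/-; Fezf2-EnR*. The receptor of the ligand that was over 4 times higher thus had overlapping values in *Fezf2-/-* and *Fezf2+/+* cortices, with a log2 difference of 0.09 (SE 0.17, interval -0.28 to 0.47, limma adjusted p = 0.881), and -0.12 without replicate bc203. Both *Fezf2-/-; Fezf2-EnR* libraries were below the *Fezf2-/-* libraries, with a log2 difference of -0.35 (SE 0.19, interval -0.78 to 0.07, adjusted p = 0.367), which was -0.08 with litter as a block (adjusted p = 0.835).

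Per kilobase of exon, the receptors kept the order *Kdr*, *Flt1*, *Flt4* in each genotype, at 68.2 ± 13.2, 33.0 ± 6.73 and 14.5 ± 3.45 (SD, n = 3) in *Fezf2+/+* cortices, with no overlap between neighbours. *Flt4* made up 11.7% to 13.2% of the receptor sum in *Fezf2+/+*, 10.3% to 13.4% in *Fezf2-/-* and 9.54% and 11.1% in *Fezf2-/-; Fezf2-EnR*.

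All 3 receptors were lowest in replicate bc203, a *Fezf2+/+* library and the only one of that genotype in litter m2. *Kdr* was at 485 there against 601 to 782 in the other libraries, *Flt1* at 341 against 420 to 508 and *Flt4* at 86.4 against 94.0 to 140. The 15 endothelial markers, all detected, summed to 3946 in bc203 against 4394 and 4480 in the other *Fezf2+/+* libraries, and the 9 pericyte markers to 3232 against 4443 and 4460. In *Fezf2-/-* cortices the endothelial markers summed to between 3947 and 4791, and in *Fezf2-/-; Fezf2-EnR* cortices to 3702 and 3796, below every other library. The red blood cell markers also had their lowest sums in the *Fezf2-/-; Fezf2-EnR* libraries, 4204 and 4556 against 5110 to 8884 in the others. Of these, 0 of the 5 tested were called there against *Fezf2-/-* (median -0.64, 0.766% of all genes called) or against *Fezf2+/+* (median -0.57, 0.117% of all genes called). The part of these markers in the values of the receptors and of *Vegfb*, which was also lowest in those libraries, was not tested.

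Relative to that endothelial sum, *Kdr* was at 12.3% to 16.4% in *Fezf2+/+*, 14.5% to 18.9% in *Fezf2-/-* and 16.2% and 18.1% in *Fezf2-/-; Fezf2-EnR*. *Flt1* was at 8.65% to 11.3%, 10.1% to 11.5%, and 11.4% and 11.5% in the same order. *Flt4* was at 2.19% to 3.06% in *Fezf2+/+*, 2.75% to 3.05% in *Fezf2-/-* and 2.48% and 2.72% in *Fezf2-/-; Fezf2-EnR*. Replicate bc203 remained the lowest library for each receptor on this scale. Of the lymphatic markers, *Lyve1* was at 1.09 to 6.54 normalized counts in all libraries, while *Prox1*, which neurons and their progenitors also express, was at 486 to 801.

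**Figure D3:**
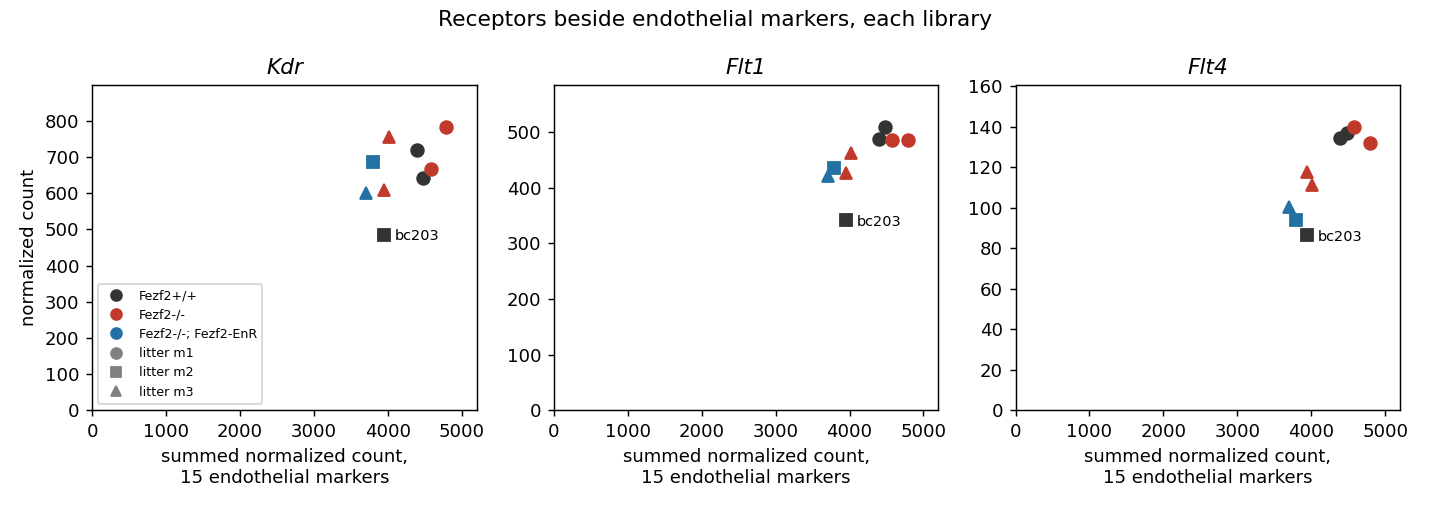
Normalized count of each receptor (y axis, from 0) against the summed normalized count of 15 endothelial markers (x axis, from 0), 1 point per library, coloured by genotype, with marker shapes for the litters. Replicate bc203 is the lowest point for each receptor, and the *Fezf2-/-; Fezf2-EnR* libraries have the lowest endothelial sums, 3702 and 3796.

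Over the 7 tested members, limma called 0 in *Fezf2-/-* against *Fezf2+/+* at an adjusted p under 0.05, where 0.858% of the 16197 genes tested were called. At an unadjusted p under 0.05 the count was also 0, against 10.8% of all genes, and edgeR and DESeq2 on the recovered reads called 0. The groups did not overlap for 2 members, *Vegfc* and *Pgf*, against 13.0% of all genes. The median log2 difference was 0.08 over the members and 0.00 over all genes, with 4 members above 0 and 3 below.

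In *Fezf2-/-; Fezf2-EnR* against *Fezf2-/-*, limma called 0 of the 7 members (0.766% of all genes), and edgeR and DESeq2 called 0. At an unadjusted p under 0.05 the count was 1 (*Vegfc*), against 16.9% of all genes. The groups did not overlap for 4 members (*Vegfb*, *Vegfc*, *Pgf* and *Flt4*), against 24.6% of all genes. The median was -0.12 over the members and 0.003 over all genes, with *Pgf* alone above 0. In *Fezf2-/-; Fezf2-EnR* against *Fezf2+/+*, limma, edgeR and DESeq2 called 0 of the 7 (0.117% of all genes with limma), and 0 passed at an unadjusted p under 0.05, against 19.3%. *Vegfb* alone did not overlap, against 34.6% of all genes. The comparisons share samples, so their values are side by side and not independent.

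**Figure D4:**
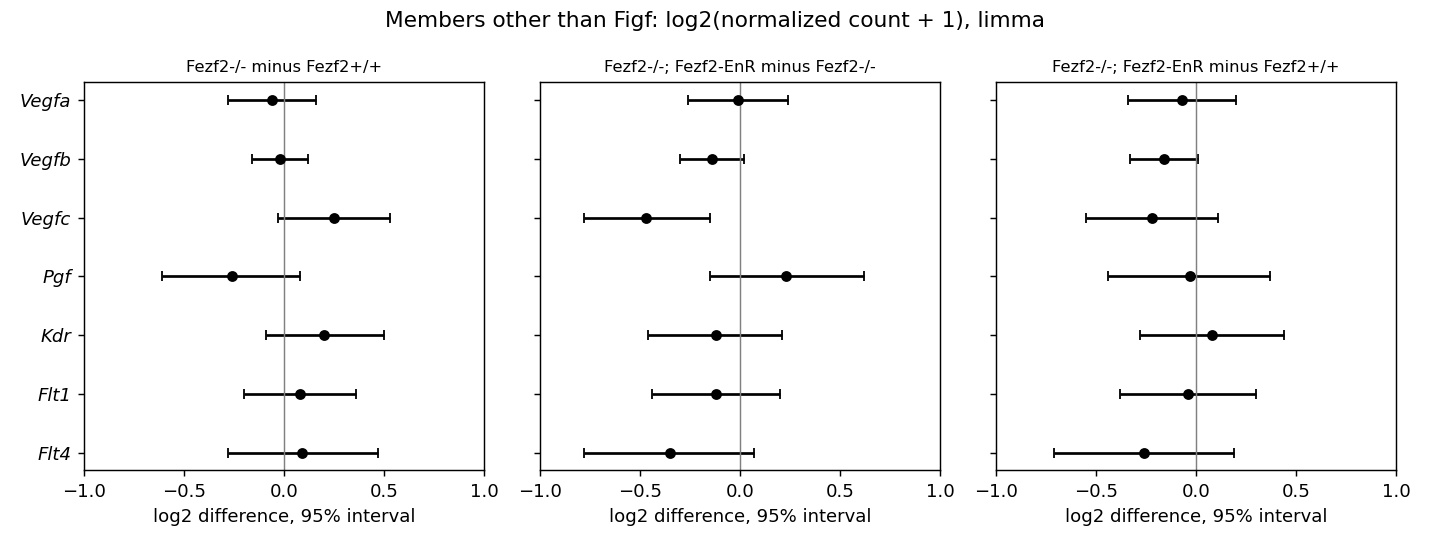
Log2 difference of normalized count + 1 (x axis) with its 95% interval from limma for the 7 members other than *Figf*, in the 3 comparisons of genotypes. In *Fezf2-/-* minus *Fezf2+/+* every interval holds 0, and in *Fezf2-/-; Fezf2-EnR* minus *Fezf2-/-* the interval of *Vegfc*, -0.78 to -0.15, lies below 0.

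By the highest Pearson correlation with *Figf* over the 9 libraries, the genes most like it among the 12958 others with a mean of at least 50 were *Kazn* (r = 0.987), *Fosl2* (0.984), *Rgs16* (0.972), *Btbd11* (0.970) and *Eepd1* (0.969). With the *Fezf2-/-* libraries apart from the rest, such an r mostly records that split, and it is given as a description. The ratio of means of *Fezf2-/-* over *Fezf2+/+* was 1.44 for *Kazn*, 2.71 for *Fosl2*, 1.74 for *Rgs16*, 1.74 for *Btbd11* and 1.92 for *Eepd1*. Each was smaller than the 4.69 of *Figf*. *Fosl2*, a subunit of the AP-1 transcription factor, was at 1418 to 1489 normalized counts in *Fezf2+/+*, 3508 to 4585 in *Fezf2-/-* and 1581 and 1630 in *Fezf2-/-; Fezf2-EnR*. Among the members, r with *Figf* ran from -0.75 for *Pgf* to 0.80 for *Vegfc*.

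The genes beside *Figf* on chromosome X did not share its pattern. *Pir* ends 0.367 kb upstream of *Figf* on the same strand and was at 17.4 to 32.3 normalized counts, with a log2 difference of -0.04 for *Fezf2-/-* minus *Fezf2+/+* (interval -0.58 to 0.50, limma adjusted p = 0.968). *Piga* starts 17.1 kb downstream and was at 122 to 176, with a difference of -0.07 (interval -0.37 to 0.24, adjusted p = 0.901). *Siah1b*, 297 kb away, differed by -0.07 (interval -0.38 to 0.24, adjusted p = 0.894). These were the 3 neighbours that passed the filter on low values within 300 kb.

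**Figure D5:**
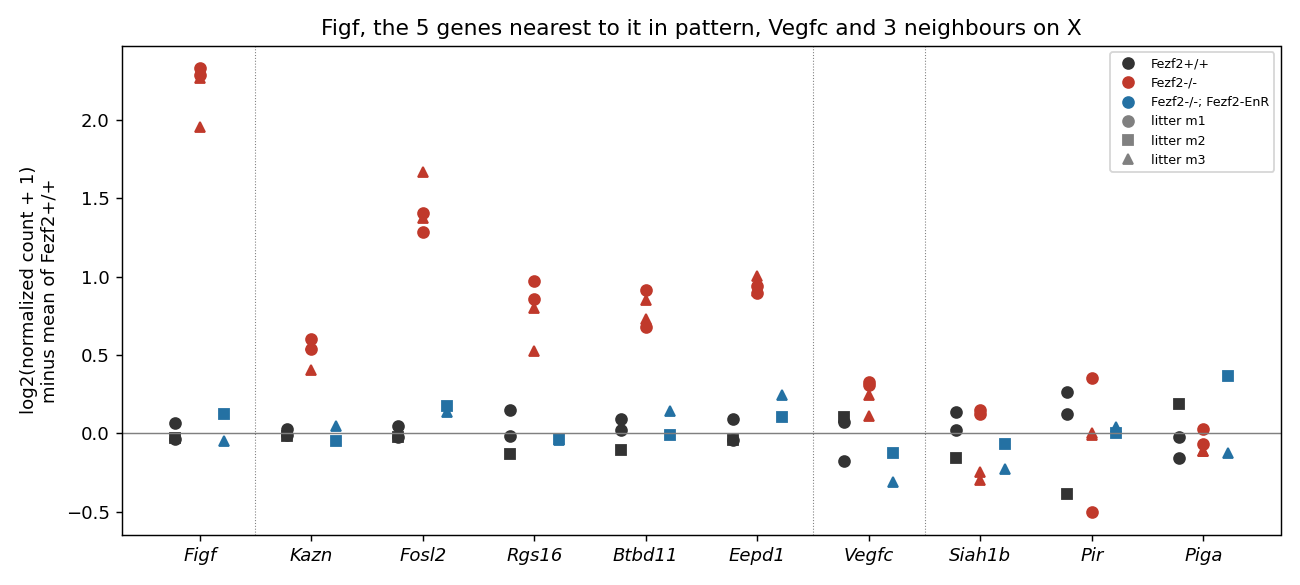
Log2(normalized count + 1) minus the *Fezf2+/+* mean (y axis) in each library, coloured by genotype, with marker shapes for the litters, for *Figf*, the 5 genes nearest to it in pattern, *Vegfc* and 3 neighbours of *Figf* on chromosome X. The *Fezf2-/-* points of *Figf* have a mean of 2.21, those of the 5 genes lie lower, and those of *Siah1b*, *Pir* and *Piga* spread around 0 with the other genotypes.

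The co-receptors and other partners of the VEGF receptors had 0 of 9 genes called in *Fezf2-/-* against *Fezf2+/+* (0.858% of all genes), with a median log2 difference of 0.09. *Nrp2*, the neuropilin that binds VEGF-C and the semaphorins, was at 809, 681 and 437 normalized counts in *Fezf2+/+*. It was at 2383, 2138, 1269 and 2786 in *Fezf2-/-* and at 2304 and 414 in *Fezf2-/-; Fezf2-EnR*. The *Fezf2-/-* libraries were above the *Fezf2+/+* libraries, with a log2 difference of 1.73 (SE 0.48, limma adjusted p = 0.192), and the *Fezf2-/-; Fezf2-EnR* libraries differed from each other by more than the groups did. Thalamic and striatal markers summed to 2540 in bc204, 1995 in bc208 and 684 in bc207, which had the highest *Nrp2* value. That sum includes *Ppp1r1b*, itself at a mean of 960 in *Fezf2+/+* and 489 in *Fezf2-/-*. The part of these markers in the values of *Nrp2* was not tested.

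Of the 7 tested genes for the processing of VEGF-C and VEGF-D, 1 rose in *Fezf2-/-* against *Fezf2+/+* (0.512% of all genes rose) and 0 fell, with a median of -0.07. *Adamts3*, the protease that activates VEGF-C and acts on the reelin signal in the cortex, was at 959 to 1033 normalized counts in *Fezf2+/+*, 1347 to 1878 in *Fezf2-/-* and 1216 and 1411 in *Fezf2-/-; Fezf2-EnR*. It rose in *Fezf2-/-* by 0.64 on the log2 scale (SE 0.11, limma adjusted p = 0.027). *Fezf2-/-; Fezf2-EnR* minus *Fezf2-/-* gave -0.25 for *Adamts3* and was not called (limma adjusted p = 0.349). Both *Fezf2-/-; Fezf2-EnR* libraries lay above the *Fezf2+/+* range (limma adjusted p = 0.171 for that comparison). *Ccbe1*, the cofactor of *Adamts3*, was at 1263 to 1488 in *Fezf2+/+*, 1080 to 1277 in *Fezf2-/-* and 1496 and 1734 in *Fezf2-/-; Fezf2-EnR* (adjusted p = 0.532 for *Fezf2-/-* against *Fezf2+/+*).

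Of 29 tested genes that signal inside the cell below the receptors, 1 rose and 1 fell in *Fezf2-/-* against *Fezf2+/+*, with a median of 0.00. Over all genes, 0.512% rose and 0.346% fell. *Prkca*, a protein kinase C, rose by 0.64 (SE 0.09, limma adjusted p = 0.00754), and *Shb*, an adaptor that binds KDR, fell by 0.69 (SE 0.13, adjusted p = 0.0434). The comparison of *Fezf2-/-; Fezf2-EnR* with *Fezf2-/-* called neither (adjusted p = 0.265 and 0.153). Of 23 other ligands and receptors of vessel growth, 1 rose and 1 fell, with a median of 0.14. *Angpt1*, a ligand of the endothelial receptor TEK, was at 425 to 447 normalized counts in *Fezf2+/+*, 605 to 752 in *Fezf2-/-* and 470 and 493 in *Fezf2-/-; Fezf2-EnR*. It rose by 0.62 in *Fezf2-/-* against *Fezf2+/+* (SE 0.08, adjusted p = 0.00509) and fell by 0.48 in *Fezf2-/-; Fezf2-EnR* against *Fezf2-/-* (adjusted p = 0.0494), where 0.432% of all genes fell. *Wnt7b*, a neuronal signal to brain endothelium, was at 4044 to 5035 in *Fezf2+/+* and at 2704 to 3277 in *Fezf2-/-*, and fell by 0.55 (SE 0.10, adjusted p = 0.0248). In *Fezf2-/-; Fezf2-EnR* it was at 3507 and 4116, with a log2 difference of 0.35 from *Fezf2-/-* that was not called (limma adjusted p = 0.167).

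In *Fezf2-/-* against *Fezf2+/+*, 0.858% of all genes were called. The relatives of the family among the platelet-derived growth factors and their receptors had 0 of 6 genes called there. The hypoxia response, which controls *Vegfa* in many tissues, had 0 of 17, and the medians were 0.22 and -0.02. Of 5 tested AP-1 factors, 1 rose (0.512% of all genes rose), *Fosl2*, by 1.43 (SE 0.08, limma adjusted p = 7.45e-06), and the median was 0.55. The lists were chosen with earlier results of these data known, and *Fosl2* was among the genes most like *Figf*. Its rise is therefore given as a description and not as an independent result. Among the cell type markers, 0 of 15 endothelial, 0 of 9 pericyte and 0 of 2 tested lymphatic genes were called, with medians of 0.02, 0.13 and 0.24. Tip cells, the leading cells of vessel sprouts, had 0 of 5 tested markers called in *Fezf2-/-* against *Fezf2+/+*, while *Igfbp3* and *Apln* rose in *Fezf2-/-; Fezf2-EnR* against *Fezf2-/-* (0.333% of all genes rose), by 0.79 and 0.59 (adjusted p = 0.0389 and 0.0471). Of the 5 tip cell markers, 3 were above 0 in the latter comparison, with a median of 0.59. *Angpt2* was at 0.75 and not called (limma adjusted p = 0.352), while *Nid2* and *Cd34* were at -0.28 and -0.04. The 15 endothelial markers had 0 called in that comparison (0.766% of all genes), with a median of -0.15. In *Fezf2-/-; Fezf2-EnR* against *Fezf2+/+*, no gene of these lists was called, while 0.0926% of all genes rose and 0.0247% fell.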

How the data were processed

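RNA-seq of P0 cortex was analysed in 9 libraries, grouped by the genotype in the sample labels. Per the labels, total RNA was isolated with a Qiagen kit and polyA libraries were made with Illumina TruSeq. The labels and the methods name different sequencers. Per the submitters' processing notes, Bowtie, STAR and DESeq were used with build mm10, while the methods name TopHat, Bowtie and DESeq. Annotation release, counting tool and strand were not given in the sources used here. The authors divided counts per gene by a size factor, so the deposited values are a normalized signal, to 2 decimals, for 24624 genes. The methods give 1 more *Fezf2+/+* mouse than the labels, and 3 were analysed here. In every library, 100.0% of values from 20 to 200 were whole multiples, within 0.02 reads, of a step of 0.8306 to 1.0926, which recovered the read counts.

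log2(value + 1) was tested with limma 3.58.1 (R 4.3.3, eBayes with trend) in the 16197 genes whose mean was 10 or more, with 1 coefficient per genotype, all 9 libraries in 1 fit and no covariate, and a call at a Benjamini-Hochberg adjusted p under 0.05 over all genes tested. The fit was also run on simulated counts that held no litter or sex effect, and so cannot show how it handles these. All 8 members passed the filter. With 2 libraries in *Fezf2-/-; Fezf2-EnR*, its comparisons use a spread estimated over all groups. Fold changes on this scale understate those of low genes. Each library is 1 mouse, and no technical replicates were given. Litters pair the samples per the labels: deviations from group means had a median correlation of 0.144 over 7 pairs of libraries of the same litter and different genotype, and -0.0156 over 19 other pairs.

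Exon lengths, positions and neighbours were taken from GENCODE M21 (GRCm38), to which 24595 of 24624 identifiers matched, and promoter windows from RefSeq (GRCm38.p6). No exon of a member overlaps an exon of another annotated gene. All 8 members had a promoter window, and for *Vegfa* and *Pgf*, with more than 1 window, GC content is a mean over them. Named genes were the members, the 5 genes most correlated with *Figf*, genes within 300 kb of it, *Fezf2*, sex-linked genes and, of each gene list, the called genes and the 2 highest by mean. *Lyve1* was named after its values were seen. Some genes that this rule names are not reported here. The members and lists were chosen with earlier results of these data known. Alternatives were pseudocounts 0.1 and 10, no filter or a mean of at least 50, rescaling by TMM or median ratio, each library left out, a litter block, litter m1 by itself, a fit of the compared groups alone, and edgeR 4.0.16 and DESeq2 1.42.0 on recovered reads. Leaving out the libraries with high *Xist* and using the length of the longest protein-coding transcript were added after seeing the data. Tables and figures were made with Python 3.11.15, pandas 2.3.3 and matplotlib 3.10.9.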

Additional observations from a re-analysis of the deposited data

How the results depend on the processing

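The count of members called stayed at 0 in every comparison under every alternative. Over 410 alternative values of 21 pairs of member and comparison, 393 kept their sign and 17 changed it, in 9 pairs, none of them called, and the lowest adjusted p was 0.143. With litter as a replicate block, signs changed in *Fezf2-/-; Fezf2-EnR* minus *Fezf2-/-* for *Vegfa* (0.11), *Kdr* (0.02) and *Flt1* (0.07), and in *Fezf2-/-; Fezf2-EnR* minus *Fezf2+/+* for *Vegfa* (0.10) and *Flt1* (0.14). Within litter m1 alone, *Flt1* in *Fezf2-/-* minus *Fezf2+/+* was -0.03. With each library left out in turn, *Fezf2-/-* minus *Fezf2+/+* ran from -0.10 to 0.19 for *Flt1* and -0.12 to 0.21 for *Flt4*, lowest without bc203. *Fezf2-/-; Fezf2-EnR* minus *Fezf2-/-* ran from -0.06 to 0.06 for *Vegfa*, and *Fezf2-/-; Fezf2-EnR* minus *Fezf2+/+* from -0.13 to 0.07 for *Pgf*, -0.08 to 0.20 for *Kdr* and -0.22 to 0.07 for *Flt1*. The log2 difference of *Figf* between *Fezf2-/-* and *Fezf2+/+* stayed between 2.12 and 2.30, and its place among the ligands per kilobase was the same with the length of the longest protein-coding transcript. The 5 genes most like *Figf* were the same with pseudocounts 0.1 and 10.

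The number of all genes called moved more. In *Fezf2-/-* against *Fezf2+/+* it was 139, and 220 with the groups compared alone, 239 within litter m1, 81 without the 3 libraries with high *Xist* (chosen after seeing the data), 315 with DESeq2, and 66 (without bc201) to 218 (without bc209) with a library left out. In *Fezf2-/-; Fezf2-EnR* against *Fezf2-/-* it was 124, and 67 with the groups compared alone, 454 with DESeq2, and 21 (without bc209) to 1085 (without bc208). In *Fezf2-/-; Fezf2-EnR* against *Fezf2+/+* it was 19, and 10 with a mean of at least 50, 11 with the groups compared alone, 32 with the litter block, 641 with DESeq2, and 8 (without bc209) to 492 (without bc208). The cause was not tested. Without bc208 or bc209 the remaining library of that genotype is assumed to vary like the other groups. DESeq2 gave no adjusted p for *Pgf* in the comparisons of *Fezf2-/-; Fezf2-EnR* and for *Vegfc* in that with *Fezf2+/+*, and *Pgf* was not tested at a mean of at least 50. *Pgf* (39 to 57 reads) and *Vegfc* (75 to 121 reads) had the fewest reads, and their SEs in *Fezf2-/-* minus *Fezf2+/+*, 0.15 and 0.13, were within the 0.13 to 0.17 of the receptors.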

Other observations

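The other marker lists gave few called genes in *Fezf2-/-* against *Fezf2+/+*, where 0.858% of all genes were called. Of the cortical glutamatergic markers, *Slc17a6*, a vesicular glutamate transporter, rose by 0.59 on the log2 scale (limma adjusted p = 0.0367) and *Emx1*, a dorsal telencephalic homeobox gene, fell by 0.44 (adjusted p = 0.0296), with a median of -0.07 over 10 genes. The 9 GABAergic markers had 0 called and a median of 0.47, with all 9 above 0, and the 12 radial glia and astrocyte markers had 0 called and a median of 0.18, with all 12 above 0. The GABAergic markers summed to 11580 to 12354 in *Fezf2-/-*, above the 8793 to 9216 in *Fezf2+/+*, and to 8891 and 10039 in *Fezf2-/-; Fezf2-EnR*. The sums of the radial glia and astrocyte markers overlapped, at 23407 to 26061 in *Fezf2-/-* and 21811 to 23565 in *Fezf2+/+*. The 6 tested thalamic and striatal markers had 0 called and a median of 0.62, with high sums in bc204 and bc208. The 10 microglia markers and 5 tested red blood cell genes had 0 called, with medians of 0.18 and -0.02, and no choroid plexus marker passed the filter.

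Of 10 tested meningeal fibroblast markers, 1 was called in *Fezf2-/-* against *Fezf2+/+*, and it fell (0.346% of all genes fell). *Lum*, the gene of a small collagen-binding proteoglycan, fell by 2.40 (adjusted p = 0.0176), and it rose by 2.30 in *Fezf2-/-; Fezf2-EnR* against *Fezf2-/-* (adjusted p = 0.0426). *Lum* was at 17.9 to 22.8 normalized counts in *Fezf2+/+*, 1.04 to 4.36 in *Fezf2-/-* and 13.1 and 24.9 in *Fezf2-/-; Fezf2-EnR*. The summed fibroblast markers ran from 779 to 1648 over the 9 libraries with overlap between the genotypes, and the median of the list was 0.08.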
